A study of Homo sapiens with 2 samples.

Results

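The gene knocked out in this study, ZNF143, and its surroundings on the short arm of chromosome 11 were examined for H3K4me3, the trimethylation of lysine 4 on histone H3. The assay was ChIP-seq, in which DNA fragments pulled down with an antibody to the mark are sequenced. The cells were HEC-1-B, a long-established cell line from a human uterine adenocarcinoma, with 1 library from wild-type cells and 1 from cells of the genotype ZNF143KO. Both libraries used the same antibody, and each came with its own list of called regions. How ZNF143 was knocked out, which bases were changed, and whether the knockout line was a single clone are not given in the sources used here. With 1 library per genotype there was no replicate and no test between genotypes.

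Members were chosen by position in the hg19 build, in which ZNF143 runs from 9482512 to 9550071 on the plus strand. The locus window, chr11:9382000-9650000, held 6 of the 20567 wild-type regions and 7 of the 20509 knockout regions. A wider window, chr11:8500000-11000000, held 32 wild-type and 31 knockout regions. Across this wider window 28 regions of each list paired one-to-one by an overlap of at least 1 bp, out of 16501 such pairs on all assembled chromosomes.

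ZNF143 is a zinc-finger transcription factor that binds promoters of many protein-coding and small nuclear RNA genes, and it has been linked to looping between promoters and distal elements. H3K4me3 is deposited around the starts of active genes by methyltransferases of the SET1 and MLL families. The nucleosomes on either side of an active start carry the mark, while the start itself is usually depleted of nucleosomes, so that an active promoter can appear as 2 marked flanks around a valley. A knockout of a gene does not by itself remove its promoter, and the mark at the promoter reports neither the protein nor the changed bases. The values below therefore do not check the genotype label.

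The promoter is shown because the valley described below lies over it. Capitals mark 3 textbook promoter motifs, searched on both strands. These are the GC box, spelled GGGCGG, the box named after its letters CCAAT, and the palindromic cAMP response element, spelled TGACGTCA. The letters are RefSeq's, in the GRCh38.p14 build, for the 250 bases before the annotated start, chr11:9460762-9461011, plus strand. The peak lists use hg19, so these letters were not aligned with the regions base by base.
ZNF143 promoter: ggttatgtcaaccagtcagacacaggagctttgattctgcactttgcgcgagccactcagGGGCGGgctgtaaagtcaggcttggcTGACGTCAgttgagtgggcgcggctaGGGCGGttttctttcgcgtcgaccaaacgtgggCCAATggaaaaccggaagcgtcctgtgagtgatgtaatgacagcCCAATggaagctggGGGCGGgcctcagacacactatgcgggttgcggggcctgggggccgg

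The stretch was 60.0% G or C. It held 3 GC boxes, whose first bases lay 190, 138 and 47 bases before the start. It also held 2 CCAAT boxes, at 105 and 61 bases before the start, and 1 cAMP response element, at 164 bases before it. GC boxes occurred in 45% of the 35116 RefSeq promoter windows of 300 bases, CCAAT boxes in 34.6%, and the cAMP response element in 1.85%. No pair of these matches overlapped.

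Letters of the binding site of ZNF143 itself were searched in the same way, in the full 300 bases, of which the last 50 begin at the annotated start. ACTACA, from the 5′ part of the site, had no match on either strand and occurred in 8.46% of the promoter windows. ACAATTCC, which extends further 3′ in the site, occurred in 0.991% of them. It had 1 match in this window, on the opposite strand, where it reads GGAATTGT and begins 39 bases after the start. The last 30 bases of the window, chr11:9461032-9461061 in GRCh38.p14 on the plus strand, hold that match in capitals.
ZNF143 after its start: tgcatggtggtcggacgaaGGAATTGTtgg

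A match of 8 letters is a description of the sequence. The peak lists hold no data on binding of ZNF143 there.

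ZNF143 shares this promoter with a divergent transcript. In GRCh38.p14 the long non-coding RNA ZNF143-AS1 begins on the opposite strand with 313 bases between the 2 annotated starts, and the promoter windows of these genes share 187 letters. The protein-coding neighbours on the side of lower coordinates are IPO7, an importer of proteins into the nucleus, then TMEM41B, a lipid scramblase of the endoplasmic reticulum, and then DENND5A. On the other side come WEE1, the kinase that holds back entry into mitosis, then SWAP70 and then SBF2. These names give the gene order only, since no hg19 position of a neighbour was used, and regions other than those at ZNF143 are identified by position.

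The promoter of ZNF143 carried H3K4me3 in both genotypes, as a flank on each side of the start. Positions, folds, −log10 p and −log10 q below are the authors' own. The pileup, which is the number of fragments stacked at the summit, and the local background rate were recovered here from the deposited fold and p columns. The fold was taken as the pileup over that rate, each with 1 added.

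In the wild-type list the upstream flank was chr11:9481200-9482209, 1010 bp wide. Its summit lay 677 bp from the region start, its fold was 8.72, its −log10 p was 203.0 and its −log10 q was 199.7. The recovered pileup was 355 fragments over a local rate of 39.8 fragments per base. In the knockout list the same flank was chr11:9481360-9482206, 847 bp wide. Its summit lay 684 bp from the region start, its fold was 7.99, its −log10 p was 237.3 and its −log10 q was 234.4. The recovered pileup was 444 fragments over a rate of 54.7.

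The downstream flank lies at the beginning of the transcribed gene. In the wild-type list it was chr11:9482617-9483525, 909 bp wide, with its summit 166 bp from the region start. Its fold was 8.37, its −log10 p was 189.7, its −log10 q was 186.5 and its pileup was 341 fragments over a rate of 39.8. In the knockout list it was chr11:9482559-9483643, 1085 bp wide, with its summit 180 bp from the region start. Its fold was 10.02, its −log10 p was 346.0, its −log10 q was 342.8 and its pileup was 557 fragments over a rate of 54.7.

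Both flanks of the knocked-out gene thus kept the mark, and their pileups were higher in the knockout list in absolute numbers. Pileups were in general higher in the knockout list, and the lists hold no read totals, so the difference has to be read against other regions. Across all 16501 pairs the knockout pileup divided by the wild-type pileup had a median of 1.86. The ratio was 1.25 at the upstream flank and 1.63 at the downstream flank, both below that median.

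**Figure D1:**
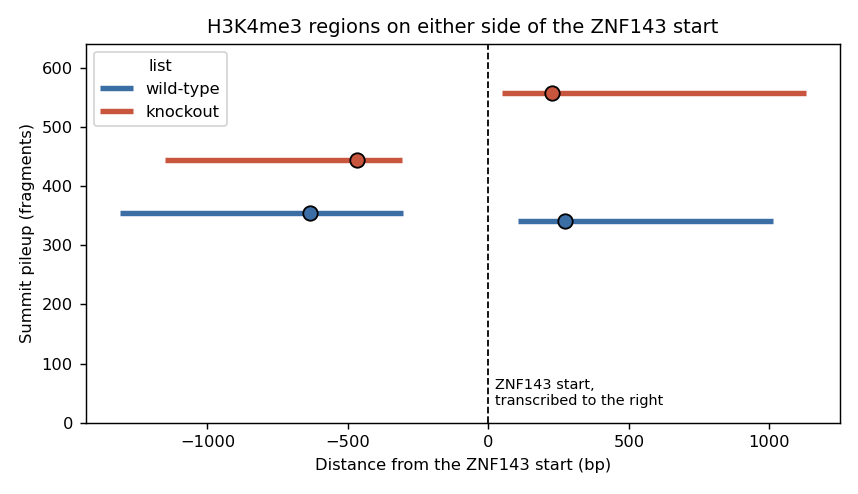
Summit pileup in fragments (vertical axis) of the regions on either side of the ZNF143 start, against distance from the start in bp (horizontal axis, positive into the gene). Bars span the called regions and points mark summits; wild-type pileups were 355 and 341 and knockout pileups 444 and 557, and neither list has a region over the start.

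On a log2 scale centred on the median of all pairs, the upstream flank stood at −0.57. The exact conditional interval of that ratio, which covers counting error only, ran from −0.78 to −0.37. The downstream flank stood at −0.19, with an interval of −0.38 to 0.01 that includes the median of all pairs. Among all pairs, 6.73% were as low as the upstream flank or lower, and 26.0% were as low as the downstream flank or lower.

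Within each library the flanks were also set against each other. In the wild-type library the downstream flank held 49.0% of the 696 fragments at the 2 summits, with an exact 95% interval of 45.2 to 52.8%. In the knockout library it held 55.6% of 1001 fragments, with an interval of 52.5 to 58.8%. The interval included 50% in the wild-type library and lay above it in the knockout library, where the flank inside the gene was the higher one. This balance is formed within a library, so neither depth nor a factor common to both flanks enters it.

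The change in balance was 0.39 on the log2 scale, with an exact conditional interval of 0.10 to 0.67 for counting error only. It was examined after the flank values were seen. For comparison, 2008 doublets of adjacent pairs lay within 1 kb of each other in both lists. Of these, 20.6% changed their balance by at least as much in either direction, and the median size of the change was 0.19. A change of the size seen at ZNF143 was thus not rare among doublets. Where all 4 pileups were at least 100, the share was 12.6% of 1264 doublets.

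The outline of the promoter moved with the balance. The width of the upstream flank fell by 163 bp and the downstream flank widened by 176 bp, so that their summed width was 1919 bp in wild-type and 1932 bp in knockout cells. Across all pairs 82.2% were wider in the knockout list, and 3.75% had a width ratio as low as the 0.839 of the upstream flank or lower. The ratio of the downstream flank was 1.19, which 20.9% of all pairs reached or passed. Upstream narrowing was thus the less common of these changes across the genome.

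The start of ZNF143 lay in the valley between the flanks in both lists. The valley measured 407 bp in wild-type and 352 bp in knockout cells, a narrowing of 55 bp. Its upstream edge lay 303 bp before the start in the wild-type list and 306 bp before it in the knockout list. Its downstream edge moved from 105 bp to 47 bp after the start. The upstream summit stood 635 bp before the start in wild-type and 468 bp before it in knockout cells, while the downstream summit moved by 44 bp only, from 271 to 227 bp after it. These moves of valley and summits were not compared with those at other doublets. With 82.2% of all pairs wider in the knockout list, a narrower valley may not be particular to ZNF143.

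Within each own list, the upstream flank ranked at the 73.3 percentile by pileup in the wild-type library and at the 56.4 percentile in the knockout library. The downstream flank ranked at 71.0 and 65.5. By fold the upstream flank ranked at 33.6 and 30.8, and the downstream flank at 32.1 and 42.0. The downstream flank thus fell in rank by pileup and gained in rank by fold, and the local rate that divides the pileup was itself low in the knockout list. On the scale centred on all pairs, that local rate stood at −0.57 around each flank.

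No further region lay inside ZNF143. Beyond the downstream flank, the remaining 66.4 kb of the gene held 0 regions in either list. Because the lists give called regions only, this does not show that the mark was absent there.

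The other regions of the locus window were examined next. At chr11:9385430-9386478 the pileup was 62 in wild-type and 86 in knockout cells. At chr11:9406149-9407245 it was 461 and 480, which was the smallest ratio of the locus window at 1.04. This strong region, on the side of lower coordinates, was therefore nearly level in raw pileup, beside a median ratio of 1.86 over all pairs.

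On the far side of ZNF143, the region at chr11:9595233-9596727 had a pileup of 389 in wild-type and 507 in knockout cells. Its summit differed by −497 bp between the lists, inside a region 1495 and 1558 bp wide. At chr11:9634980-9636273 the pileups were 42 and 49, and the summit differed by 335 bp, in the other direction. Summit shifts were not compared with those of all pairs. The knockout list alone held chr11:9594500-9594885, with a pileup of 123, a fold of 2.02 and a −log10 q of 9.92. It lay 318 bp from the next knockout region and at the 0.476 percentile of its list by fold. All 6 wild-type regions and 6 of the 7 knockout regions of the locus window overlapped a region of the other list, beside 94.5% and 90.3% in the whole lists.

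**Figure D2:**
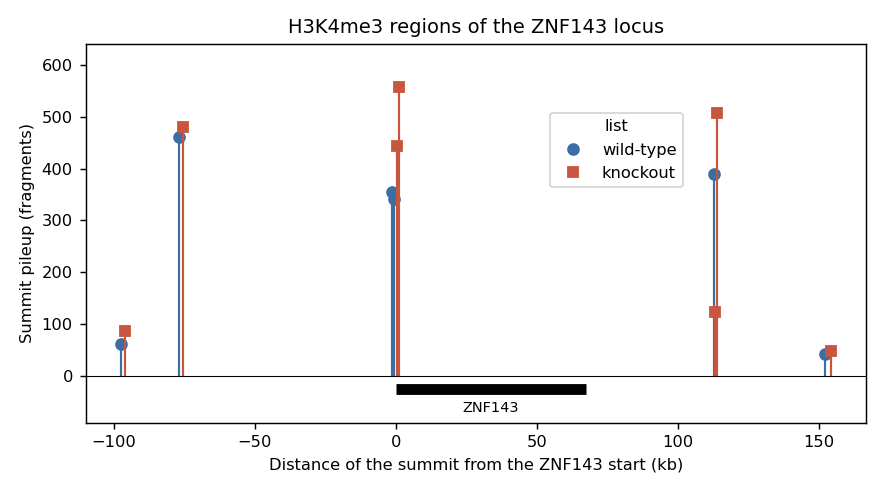
Summit pileup in fragments (vertical axis) of every region in the locus window, against distance of the summit from the ZNF143 start in kb (horizontal axis); symbols of the 2 lists are set slightly apart sideways and the black bar is the gene. The 6 paired regions had ratios of knockout over wild-type pileup between 1.04 and 1.63, below the 1.86 of all pairs.

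All 6 pairs of the locus window lay below the median of all pairs. Their centred log2 ratios ran from −0.84 at chr11:9406149-9407245 to −0.19 at the downstream flank of ZNF143, with a median of −0.54. The remaining values were −0.42 at 9385430, −0.57 at the upstream flank, −0.51 at 9595233 and −0.67 at 9634980, given by the first base of the wild-type region. A pair was called lower in the knockout library at −0.3 or below. By that rule 5 of the 6 were lower, against 17.4% of all pairs. The exception was the downstream flank of ZNF143. That exception depends on the setting. Centred on the ratio of the lists' background rates, the flank stood at −0.50 and the upstream flank at −0.89. With that centre 52.3% of all pairs were called lower, so passing −0.3 says little. The local rate stood at −0.57 around both flanks, so it does not tell them apart.

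The weak regions of the window carry wide counting intervals. That at 9385430 ran from −0.91 to 0.07, and that at 9634980 from −1.30 to −0.04. The interval at 9406149 ran from −1.02 to −0.65 and that at 9595233 from −0.71 to −0.32. Strong and weak regions alike were thus on the low side, but the weak ones alone could not place a drop of this size precisely.

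By the authors' fold the locus did not stand low. The centred log2 fold ratios of the 6 pairs ran from −0.08 to 0.31 with a median of 0.04, and 0 of them reached −0.3, beside 8.12% of all pairs, so the count says little about these 6. The highest, 0.31, was at the downstream flank of ZNF143, a value that 7.24% of all pairs reached or passed. The local rates that divide the pileup had centred log2 ratios between −0.92 and −0.53 in these pairs. Summit pileup and local rate were thus both low, and the fold is formed from these 2 values. In the wild-type list the rate was 26.8 to 46.7 at the strong regions and 3.63 and 4.12 at the weak ones. Rate and pileup may therefore not be separate observations. Whether the rate holds fragments of the regions themselves was not tested.

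ZNF143 was then placed within the wider window. The first 18 pairs, which run from 8615083 to 9780056 and include the locus, all lay below the median of all pairs. Their median was −0.57, with quartiles of −0.67 and −0.44, and 15 of the 18 were called lower, beside 17.4% of all pairs. Expressed as raw ratios they ran from 1.01 to 1.73 with a median of 1.25. The next 10 pairs, from 10314906 to 10953584, had a median of 0.05. Of these 10, 1 was called lower, beside 17.4% of all pairs, so that count says little about them. Their raw ratios had a median of 1.92.

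The largest step in the window fell between these groups, in a stretch of 535 kb from 9780056 to 10314906 that held no pair. It coincided with the largest step of the whole chromosome, which was known before this window was examined. ZNF143 lies entirely on the low side of it. The end of the gene is 230.0 kb from the last low pair and 765 kb from the first pair beyond the stretch. Between the gene and the stretch lie 4 pairs, all 4 called lower, and of the 12 pairs on the other side of the gene in the window 10 were, again beside 17.4% of all pairs.

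The pairs nearest the step carry unequal weight. The last low pair, chr11:9779834-9780056, had pileups of 14 and 20 only, and its centred value of −0.38 has an interval from −1.44 to 0.72. The pair before it, chr11:9685154-9686656, had pileups of 249 and 303 and a centred value of −0.61, with an interval of −0.86 to −0.36. The first pair beyond, chr11:10314906-10316452, had pileups of 464 and 881 and a value of 0.03, with an interval of −0.13 to 0.20. The step was placed on these same ratios, so the distance between the strong pairs on either side of it describes the step and is no test of it. The weak pair between them does not narrow its place.

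**Figure D3:**
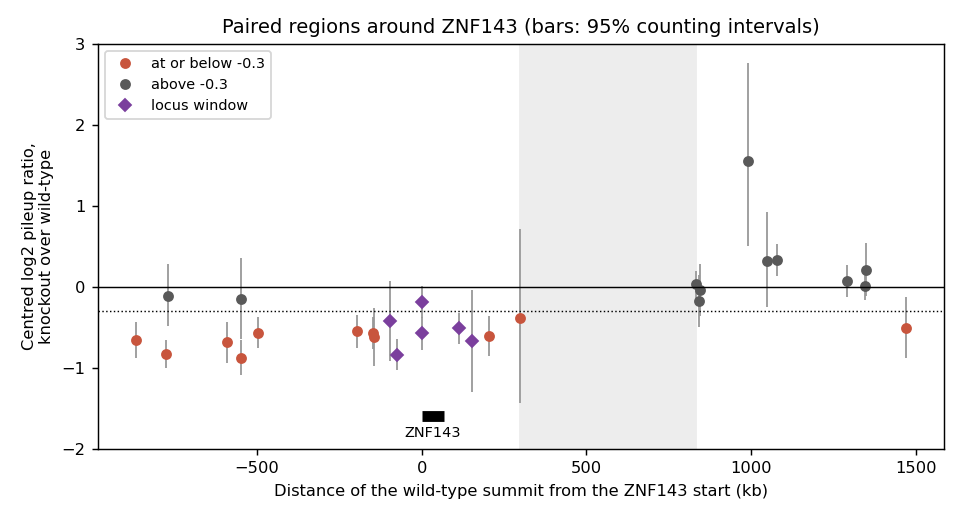
Centred log2 pileup ratio, knockout over wild-type (vertical axis) of the 28 pairs in the wider window, against distance from the ZNF143 start in kb (horizontal axis), with 95% counting intervals as bars; the dotted line is −0.3, the shaded stretch holds no pair and the black bar is ZNF143. The 18 pairs to the left of the shading have a median of −0.57 and the 10 to the right one of 0.05.

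Among the 18 low-side pairs, 3 were above −0.3. These were chr11:8710040-8711267 at −0.11 with pileups of 91 and 157, chr11:8932130-8932380 at −0.15 with pileups of 56 and 94, and the downstream flank of ZNF143. The first and the second have intervals of −0.49 to 0.28 and −0.64 to 0.36. Of the 13 low-side pairs with a wild-type pileup above 100, the downstream flank was the highest, and the next was −0.51 at 9595233. It stood 0.38 above the median of the 18 pairs. This order was read after the values were seen and has no replicate.

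The lowest pair of the window was chr11:8932702-8933592 at −0.87, with pileups of 361 and 366. It forms a doublet with chr11:8932130-8932380, which was the weaker member and did not drop as far. The change in balance of that doublet was −0.73, larger in size than the 0.39 at ZNF143. The other 3 doublets of the window changed by −0.05, 0.13 and 0.20. A shift between flanks was therefore not confined to ZNF143 within the window.

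**Figure D4:**
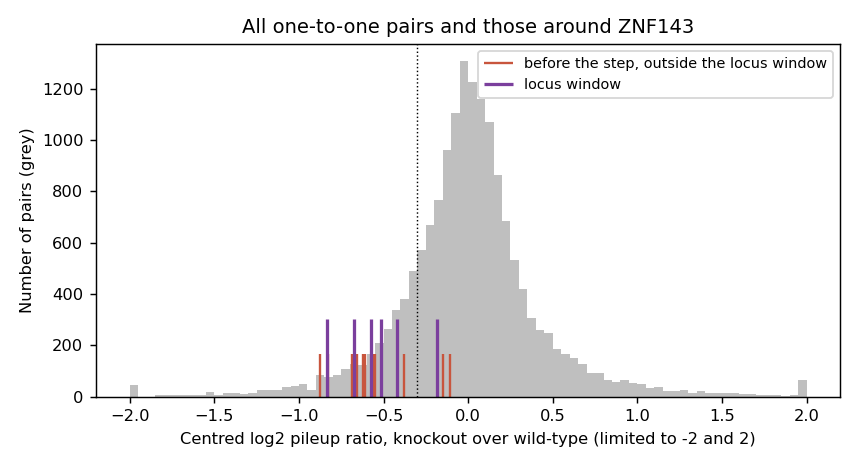
Number of pairs (vertical axis, grey) by centred log2 pileup ratio, knockout over wild-type (horizontal axis, values beyond −2 and 2 gathered in the end bins). Short lines mark the 12 pairs on the low side of the step outside the locus window, and taller ones the 6 of the locus window. All 18 lie between −0.87 and −0.11, left of the centre at 0.

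Beyond the step the pairs were not uniform. The highest was chr11:10472365-10472762, a weak region that went from 9 to 49 fragments, at 1.55 with an interval of 0.51 to 2.76. The strong region at chr11:10561919-10563128 went from 295 to 688 fragments, at 0.33 with an interval of 0.13 to 0.53. At the far end of the window the values were low again. The last pair, chr11:10952541-10953584, stood at −0.51 with pileups of 107 and 140, and its interval was −0.88 to −0.13.

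Before that pair, 2 wild-type regions with pileups of 349 and 236 corresponded to 1 knockout region, chr11:10878490-10880800, with a pileup of 440. They were left out of the pairs. The summits of the stronger wild-type region and the knockout region lay 17 bp apart, and their centred ratio was −0.56, with an interval of −0.77 to −0.35. The first 10 pairs after the window, from 11268111 to 13011128, had a median of 0.02. Of these 10, 1 was called lower, beside 17.4% of all pairs, so the count says little about them. The low values at this end thus involve 2 neighbouring places.

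The remaining regions of the wider window had no partner and were weak. The wild-type list alone held chr11:9025266-9025511 with 9 fragments and chr11:10955578-10956126 with 36. Besides the region near 9594500, the knockout list alone held chr11:10529752-10529948 with 26 fragments.

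The low side of the window was set beside the part of chromosome 11 before it. The 92 pairs that precede the window had a median of −0.55, with quartiles of −0.72 and −0.37, and 76.1% of them were called lower. The 698 pairs after the window had a median of 0.00, and 13.5% of them were called lower. Off chromosome 11 the share was 17.1% of 15683 pairs. The 12 low-side pairs of the window that lie outside the locus had a median of −0.59, with quartiles of −0.66 and −0.51. The median of the ZNF143 locus was −0.54 and its upstream flank stood at −0.57, both inside those quartiles and inside the quartiles of the 92 pairs. The downstream flank, at −0.19, lay above both.

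By fold, the window showed no step of this kind. The 18 low-side pairs had a median of 0.01 and the 10 beyond the step one of 0.04, and 0 of the 28 pairs reached −0.3. Of all pairs 8.12% did, so a count of 0 among 28 says little about these pairs. The local rates of the 18 pairs had a median of −0.68 on the centred scale, so the fold is no separate check on the pileup. The cause of the low pileup on the side of ZNF143 was not tested.

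**Figure D5:**
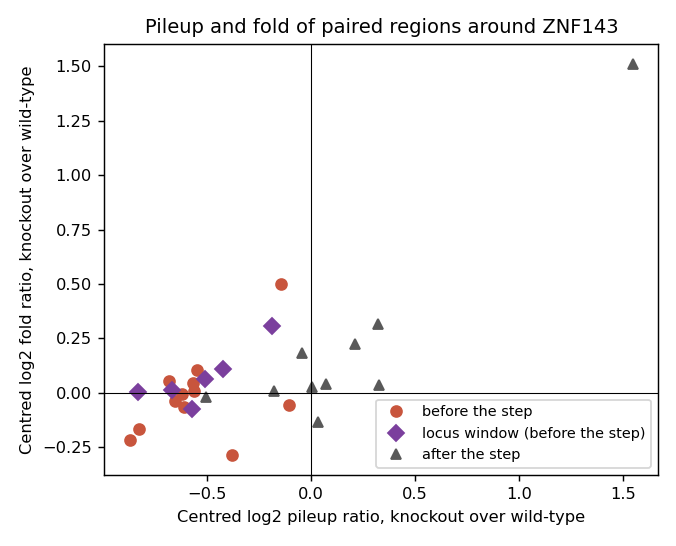
Centred log2 fold ratio, knockout over wild-type (vertical axis) against that of pileup (horizontal axis) for the 28 pairs of the wider window. Pairs before the step lie to the left, with fold ratios from −0.29 to 0.50 around a median of 0.01. The downstream flank of ZNF143 is the locus point at −0.19 and 0.31.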

How the data were processed

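The H3K4me3 ChIP-seq peak lists of 2 HEC-1-B libraries, 1 per genotype, were used, grouped by the genotype in the labels. The submitters' processing notes name Bowtie2, MACS2, SAMtools 1.12 and deepTools and the hg19 build, with no role or order; versions of the others, any control library and the calling thresholds are not given in the sources used here. The deposited lists have no header and the 10-column narrowPeak layout. Column 7 was taken as the authors' fold, a ratio of summit pileup to a local rate. Columns 8 and 9 were taken as the authors' −log10 p-values and −log10 q-values, and column 10 as the summit's distance from the region start. The deposited score equalled 10 times the −log10 q without decimals, within 1 unit, and was left aside. No scaling between lists is stated. Positions are given counted from 1.

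For each region a whole-number pileup and a local rate were solved from fold, (pileup + 1)/(rate + 1), and the Poisson upper tail in the p column. The p column was met to a relative error of at most 2.67e-05, and the solver was tested on simulated data. The lowest rates, in fragments per base, were 1.40 (wild-type) and 3.25 (knockout), a ratio of 2.31. Ratios of pileups were centred on the median of 16501 one-to-one pairs (overlap of at least 1 bp, chromosomes 1 to 22, X and Y). Pairs at −0.3 or below were called lower. Intervals are exact and cover counting error only; fragments carry no molecular identifiers. The step was the largest cumulative-sum deviation, scaled by the numbers of pairs on either side, with at least 5 pairs on a side. For the whole chromosome more pairs were required on a side, and extreme ratios were limited. All pairs of the locus window were named, and in the wider window those beside the step, the lowest, the highest and those above −0.3 on its low side; the last were chosen after their values were seen, as were the strong pair at 10561919, the pair at the far end, the merged region and the doublets. Neighbouring genes and cell type markers were not placed on the regions, since the gene table is of GRCh38.p14. The members and lists were chosen with earlier results of these data known. The work used scipy 1.17.1, numpy 2.4.6 and pandas 2.3.3 under Python 3.11.15, with figures from matplotlib 3.10.9.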

Additional observations from a re-analysis of the deposited data

How the results depend on the processing

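No paired analysis was possible because there was a single library of each genotype, which also leaves no replicate to omit. Counting error limits the weak regions, and called lists do not show what lies below the calling threshold. Centring on the ratio of background rates lowered every value by the same amount, to −0.89 at the upstream flank of ZNF143, −0.50 at the downstream flank and −0.86 for the median of the locus window. With that centre 22 of the 28 pairs of the wider window were called lower, against 52.3% of all pairs. By fold the upstream flank became −0.077 and the downstream flank 0.31, the locus median 0.037 and the median of the low side 0.0051, and the count of lower pairs 0. The fold divides the pileup by the local rate; the cause was not tested. By local rate both flanks stood at −0.57, so this setting does not tell them apart. The shift in percentile, −2.82 points at the upstream flank by fold, was −12.2 by −log10 q and −16.9 by pileup; at the downstream flank 9.93 points by fold became 0.872 and −5.58. A reciprocal overlap of 50% left out the weak pair next to the step and moved its left edge to 9686656, with the right edge the same. Thresholds of −0.2 and −0.5 gave 16 and 14 lower pairs, against 24.9% and 8.45% of all pairs. Of the alternatives run, some of them unplanned, 23 were counted as leaving their result in place, 12 as moving it and 3 as reversing it. The 12 include the downstream flank by fold, which went from −0.19 to 0.31 and so also changed sign. The 23 include the rise from 16 to 22 lower pairs with the background-rate centre, so the tally is no measure of stability.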
